A study of Mus musculus with 6 samples.

Results

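The 10 genes described here mark the primitive streak and the mesendoderm that leaves it. They are the T-box factors T (brachyury) and Eomes, the homeobox factors Mixl1, Gsc, Lhx1 and Evx1, the signals Wnt3 and Fgf8, the bHLH factor Mesp1 and the forkhead factor Foxa2. They were chosen by gene name, and all 10 were found among the 48440 genes of the deposited count table, of which 25600 had at least 1 read and 14664 passed a filter on low counts and were tested. Of the 10, 7 passed that filter. Gsc, Foxa2 and Mesp1 did not, and their counts are given without a place in the main test.

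RNA with a poly(A) tail was sequenced from 6 clones of the mouse induced pluripotent stem cell (iPSC) line iPSC34.3, to ask what the loss of Tet1 changes in these cells. The 3 Tet1 knockout clones are clones 14, 30 and 33 (replicates 1 to 3). Their genotype is given as Tet1 Cas9 mut/mut on wt/wt;GFP/wt. The 3 non-targeted clones are clones 49, 51 and 52 (replicates 1 to 3), with wt/wt;GFP/wt alone. All 6 are male and were harvested at passage 14 + 4. The strain label of all 6 names B6- Tet1tm1Kohx and, as the reporter strain, B6;CBA-Tg(Pou5f1-EGFP)2Mnn/J. Per the labels' protocols the line was grown in KSR medium, was transfected with a Cas9 ribonucleoprotein, an sgRNA against Tet1 and an ssODN (a donor oligonucleotide) with 12 h of an HRD enhancer, and the picked colonies were expanded on mouse embryonic fibroblast (MEF) feeders that were separated off before RNA extraction. The same protocol is given for both groups, and it does not say whether the non-targeted clones met the guide. Each group is 3 clones of a single parental line, and the p-values below measure the spread between such clones.

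The primitive streak is the site at which pluripotent epiblast cells of the gastrulating embryo leave the epithelium to form mesoderm and definitive endoderm. Nodal, Wnt and BMP signals induce it. Wnt3 from the posterior side and Nodal switch on T and Eomes, the anterior streak goes on to express Gsc, Lhx1 and Foxa2, and Mesp1 marks the mesoderm that migrates away. Pluripotent cells in culture express these genes at low levels or in a minority of cells as some of them begin to differentiate. Tet1 oxidises 5-methylcytosine, which in mammals lies mainly at CG dinucleotides, and for this reason the sequences just upstream of a few of these genes are given first.

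The 250 bases before the RefSeq start (GRCm38.p6, each written 5′ to 3′ on the strand of the gene, with every CG dinucleotide in capitals) are shown for T at chr17:8434173-8434422 (plus strand), Eomes at chr9:118477939-118478188 (plus strand), the most upstream of the starts listed for Foxa2 at chr2:148046970-148047219 (minus strand) and Evx1 at chr6:52313248-52313497 (plus strand). T and Foxa2 are shown because their levels spread widely over the clones, Eomes because its groups did not overlap, and Evx1 because it did not follow the others.
T: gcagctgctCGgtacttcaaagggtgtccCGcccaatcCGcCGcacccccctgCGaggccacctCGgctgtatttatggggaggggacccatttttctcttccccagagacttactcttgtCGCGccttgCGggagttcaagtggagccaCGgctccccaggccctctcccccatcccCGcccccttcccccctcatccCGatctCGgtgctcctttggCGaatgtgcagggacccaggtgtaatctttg
Eomes: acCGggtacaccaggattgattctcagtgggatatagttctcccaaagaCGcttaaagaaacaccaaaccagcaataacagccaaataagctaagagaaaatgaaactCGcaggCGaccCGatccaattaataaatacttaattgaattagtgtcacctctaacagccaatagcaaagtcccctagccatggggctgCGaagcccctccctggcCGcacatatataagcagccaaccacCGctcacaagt
Foxa2: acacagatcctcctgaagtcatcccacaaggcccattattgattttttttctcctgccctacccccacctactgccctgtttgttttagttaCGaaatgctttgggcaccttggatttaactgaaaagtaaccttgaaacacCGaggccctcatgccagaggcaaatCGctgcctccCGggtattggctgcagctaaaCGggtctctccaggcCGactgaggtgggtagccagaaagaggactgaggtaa
Evx1: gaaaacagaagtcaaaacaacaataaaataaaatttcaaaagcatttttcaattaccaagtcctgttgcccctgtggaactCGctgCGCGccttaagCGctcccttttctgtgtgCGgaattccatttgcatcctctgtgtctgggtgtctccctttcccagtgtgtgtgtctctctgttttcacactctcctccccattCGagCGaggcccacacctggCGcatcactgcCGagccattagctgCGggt
These windows hold 14 CG dinucleotides before T, 8 before Eomes, 6 before the Foxa2 start shown and 10 before Evx1. The windows of the other Foxa2 starts, not shown, hold 13 and 20. RefSeq windows were found for 8 of the 10 genes, 10 windows in all, and 8 of these 10 held more CG dinucleotides than the median of 6 over all 32841 such windows (quartiles 2 and 16). The most were in the windows of Lhx1 (26), Gsc (22) and Wnt3 (22), and the fewest in that of Mesp1 (2). On either strand, the TCF/LEF core CTTTGA occurred upstream of T and Mesp1, 2 of the 8 genes, and in 13.8% of all windows. The SMAD motif CAGAC occurred upstream of 4 of the 8 genes and in 42.2% of all windows. The FOXH1 motif AATNNACA and the T-box motif AGGTGTGA had no match upstream of the 8 genes and were in 10.9% and 1.12% of all windows. None of these motifs contains the letters of another. The windows carry no methylation or binding data, so they describe the sequence only.

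The libraries held between 11937909 and 16189554 counted reads. Levels below are in CPM, that is, reads scaled to the library total after TMM factors, and 3 reads, taken as the floor of detection, correspond to between 0.187 and 0.248 CPM. Tet1 itself, on chromosome 10 (62804570 to 62899118), had 365, 231 and 288 CPM in knockout replicates 1 to 3, against 1158, 966 and 1034 CPM in non-targeted replicates 1 to 3. The groups did not overlap, with a log2 fold change of -1.84 ± 0.16 (SE; edgeR quasi-likelihood test, adjusted p = 0.0703). Tet1 RNA thus remained in all 3 knockout clones at a lower level.

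T, the T-box factor that defines the streak and its nascent mesoderm, had the widest spread over the clones in log2 CPM with a prior count of 2. Without a prior count, the CPM of Wnt3 (0.161 to 9.51) spanned a wider ratio. T lies on chromosome 17 (8434423 to 8442496). T had 1.92, 48.9 and 22.9 CPM in knockout replicates 1 to 3, against 1.61, 5.12 and 1.182 CPM in non-targeted replicates 1 to 3, from 25, 591 and 319 reads in the knockout libraries and 20, 82 and 17 reads in the non-targeted libraries. Knockout replicates 2 and 3 stood above every other clone, while knockout replicate 1 lay inside the non-targeted range, so the groups overlapped. The log2 fold change of T was 3.19 ± 1.04 (SE, n = 3 clones each; edgeR adjusted p = 0.142).

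Eomes, the T-box factor needed for definitive endoderm and for cells to leave the streak, lies on chromosome 9 (118478212 to 118486132). It had 9.97, 23.2 and 15.1 CPM in knockout replicates 1 to 3, against 6.13, 7.74 and 4.93 CPM in non-targeted replicates 1 to 3. All 3 knockout clones stood above all 3 non-targeted clones, and knockout replicate 1 was the lowest of the 3. The log2 fold change of Eomes was 1.35 ± 0.33 (SE; edgeR adjusted p = 0.111), and the gene rose in DESeq2 (1.35, adjusted p = 0.00366). That call ended when knockout replicate 2 (DESeq2 adjusted p = 0.0852), non-targeted replicate 1 (0.0658) or non-targeted replicate 3 (0.106) was left out.

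The homeobox factors Mixl1, Gsc, Lhx1 and Evx1 rested on few reads, at most 34 in any library. Mixl1, a factor of mesendoderm under Nodal control, on chromosome 1 (180693043 to 180697034), had 0.843, 1.49 and 1.73 CPM in knockout replicates 1 to 3, against 0.646, 0.437 and 0.417 CPM in non-targeted replicates 1 to 3. These values rest on 11, 18 and 24 reads in knockout libraries and 8, 7 and 6 reads in non-targeted libraries. As for Eomes, the groups did not overlap, with a log2 fold change of 1.44 ± 0.41 (SE; edgeR adjusted p = 0.125). Gsc, the homeobox factor of the anterior streak and organizer, on chromosome 12 (104471209 to 104473330), had 7, 13 and 11 reads in knockout replicates 1 to 3, against 4, 2 and 4 reads in non-targeted replicates 1 to 3. The order of the groups was again free of overlap, and in edgeR without the low-count filter the log2 fold change of Gsc was 1.71 ± 0.59 (SE; adjusted p = 0.151).

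Lhx1, a LIM homeobox factor of the anterior streak and its endoderm, on chromosome 11 (84518284 to 84525535), had 1, 12 and 26 reads in knockout replicates 1 to 3, against 0, 13 and 0 reads in non-targeted replicates 1 to 3. Nearly all reads came from knockout replicates 2 and 3 and non-targeted replicate 2, and the log2 fold change of 1.72 ± 1.25 (SE; edgeR adjusted p = 0.413) did not exceed the spread between clones. It ranged from 0.81 without knockout replicate 3 to 6.71 without non-targeted replicate 2, which left the non-targeted group with no read, so that the higher value depends on the prior count. Lhx1os, the neighbouring gene that runs the other way, had 0, 4 and 4 reads in knockout replicates 1 to 3, against 0, 1 and 0 reads in non-targeted replicates 1 to 3. Evx1, a homeobox factor of the posterior streak, on chromosome 6 (52313498 to 52318378), had 1.07, 2.56 and 0.719 CPM in knockout replicates 1 to 3, against 1.29, 2.12 and 1.25 CPM in non-targeted replicates 1 to 3. Its highest level was in knockout replicate 2 and its lowest in knockout replicate 3, and the log2 fold change was -0.12 ± 0.50 (SE; edgeR adjusted p = 0.899). The sign of the Evx1 value turned when knockout replicate 1 (0.04), knockout replicate 3 (0.21) or non-targeted replicate 2 (0.17) was left out. Evx1os, which overlaps Evx1 on the other strand, had at most 4 reads in any library.

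Wnt3, the Wnt ligand that starts streak formation in the mouse embryo, lies on chromosome 11 (103774150 to 103817957). It had 0.767, 9.51 and 8.20 CPM in knockout replicates 1 to 3, against 0.161, 1.87 and 0.487 CPM in non-targeted replicates 1 to 3. Knockout replicates 2 and 3 were the 2 highest clones, and non-targeted replicate 2 exceeded knockout replicate 1. The log2 fold change of Wnt3 was 2.80 ± 0.99 (SE; edgeR adjusted p = 0.154), and the gene rose in DESeq2 (2.85, DESeq2 adjusted p = 0.0234). With knockout replicate 2, knockout replicate 3, non-targeted replicate 1 or non-targeted replicate 3 left out, the DESeq2 adjusted p of Wnt3 lay between 0.173 and 0.460.

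Fgf8, the FGF ligand that cells need to migrate out of the streak, lies on chromosome 19 (45736798 to 45742915). It had 0.920, 18.3 and 13.01 CPM in knockout replicates 1 to 3, against 1.05, 3.74 and 1.182 CPM in non-targeted replicates 1 to 3. Here knockout replicate 1 (12 reads) was the lowest of all 6 clones, close to non-targeted replicate 1 (13 reads), and knockout replicates 2 and 3 were the highest. The log2 fold change of Fgf8 was 2.40 ± 0.94 (SE; edgeR adjusted p = 0.176; DESeq2 adjusted p = 0.158).

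Foxa2, the forkhead factor of the anterior streak, node and definitive endoderm, on chromosome 2 (148042877 to 148046969), had 2, 36 and 55 reads in knockout replicates 1 to 3, against 2, 9 and 5 reads in non-targeted replicates 1 to 3. Knockout replicates 2 and 3 were highest, at 2.98 and 3.95 CPM, and knockout replicate 1, at 0.153 CPM, had as few reads as non-targeted replicate 1. Without the low-count filter the log2 fold change of Foxa2 was 2.65 ± 0.82 (SE; edgeR adjusted p = 0.117; DESeq2 adjusted p = 0.0545). Mesp1, the bHLH factor of migrating cardiac mesoderm, on chromosome 7 (79792241 to 79793788), had a single read in knockout replicate 3 and none in the other libraries. At this depth Mesp1 was not detectable in either group, and no fold is given.

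**Figure D1:**
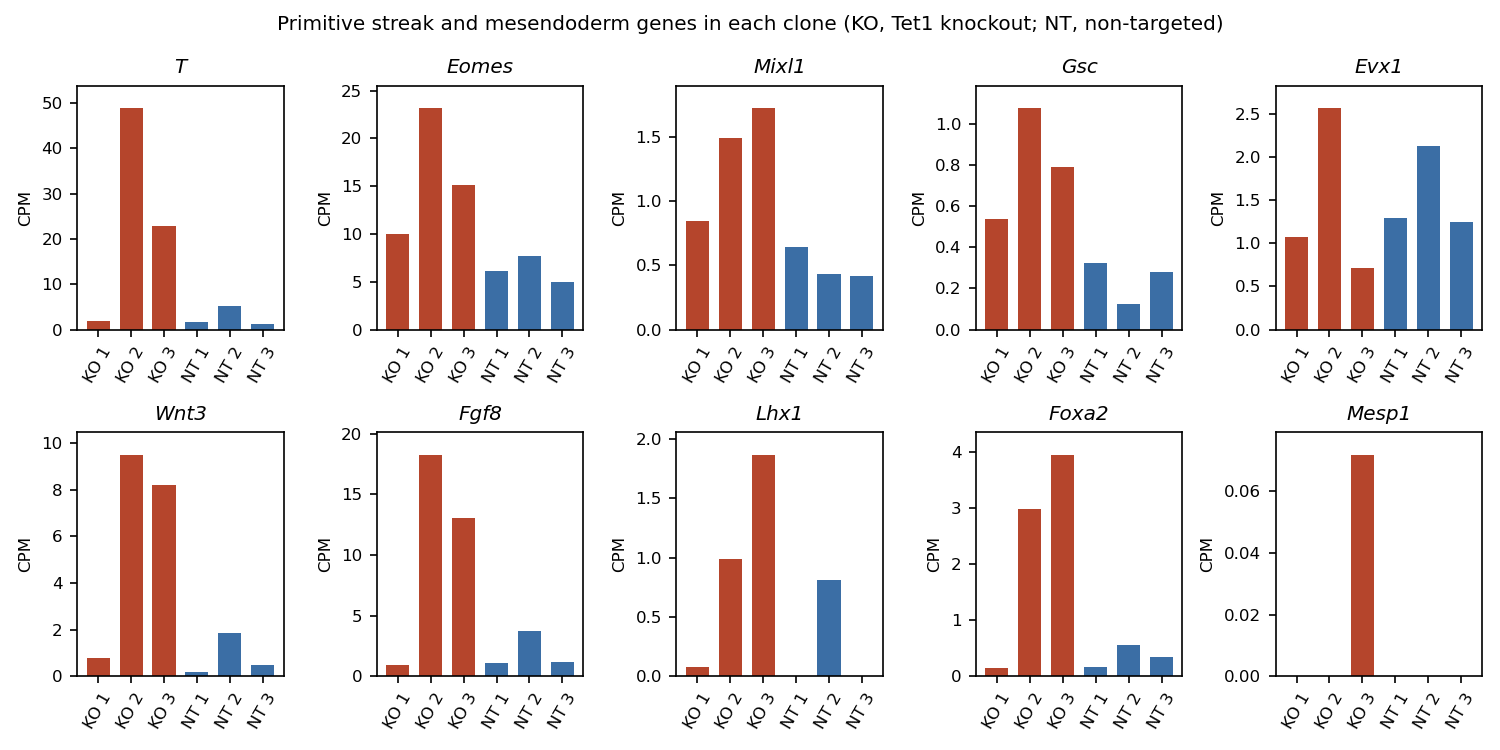
CPM (vertical axis, from 0, a separate scale for each gene) of the 10 genes in each clone, with 1 bar per clone, Tet1 knockout clones (KO) on the left and non-targeted clones (NT) on the right. For T, Wnt3, Fgf8 and Foxa2 the bars of KO 2 and KO 3 stand far above the rest and KO 1 stands near the NT bars. Mesp1 has 1 read in all.

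Per kilobase of exon, the order of the mean levels in knockout clones was T (10.6 CPM per kb), Fgf8 (7.96), Eomes (3.87), Wnt3 (2.00), Foxa2 (0.997), Gsc (0.632), Mixl1 (0.590), Evx1 (0.505), Lhx1 (0.241) and Mesp1 (0.0188). In the non-targeted clones the means per kb were Eomes (1.51), Fgf8 (1.48), T (1.14), Evx1 (0.540), Wnt3 (0.273), Mixl1 (0.218), Gsc (0.191), Foxa2 (0.151), Lhx1 (0.0664) and Mesp1 (0). In the knockout clones the range of T was 0.828 to 21.1 CPM per kb, and it overlapped those of Fgf8 (0.681 to 13.5) and Eomes (2.40 to 5.58), so their order was not separated by the spread between clones. Among the non-targeted clones the ranges of Eomes (1.19 to 1.86), Fgf8 (0.777 to 2.77) and T (0.510 to 2.21) also overlapped. The counting included introns, which exon lengths do not cover, so these values compare different genes only roughly.

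With all 6 clones, none of the 7 tested genes passed edgeR's adjusted p of 0.05 in either direction, and the background over all 14664 tested genes was the same, 0.00% called higher and 0.00% called lower. At an unadjusted p of 0.05, 5 of the 7 (T, Eomes, Mixl1, Fgf8 and Wnt3) were higher and 0 lower, against 14.0% of all tested genes higher and 10.8% lower. Of the 7, 6 had a positive log2 fold change, with a median of 1.72, against 50.3% of all tested genes, with a median of 0.0021. The groups did not overlap for 2 of the 7, Eomes and Mixl1, both higher in knockout clones, where the background was 14.8% of all tested genes higher and 14.7% lower without overlap. Mixl1 passed the low-count filter through the knockout clones alone, which favours a difference, so these counts of the 7 are a description. EdgeR without the low-count filter called none of the 10, against 0.379% of all genes higher and 0.242% lower. DESeq2, which gave an adjusted p for 6 of the 10 genes, called 2 higher (Eomes and Wnt3) and 0 lower, against 5.77% of all its tested genes higher and 3.35% lower. Limma voom called none of the 7 genes that passed the filter, against 0.00% of all tested genes higher and 0.00682% lower, which is Tet1 alone.

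Of the clones left out in turn, only knockout replicate 1 changed the edgeR calls. Without it, 7 of the 9 genes then tested rose and 0 fell, where 15.1% of all 15140 tested genes rose and 14.0% fell. Of these 7, Gsc and Foxa2 were not tested with all clones. Gsc, Foxa2 and Mixl1 reached the minimum count only in the knockout clones, where they are high, so the filter favoured their calls. For all 7, the clone left out was the lowest knockout clone, so leaving it out raised the fold change by construction, and 2 knockout clones remained. Neither the count of 7 nor the single adjusted p-values are thus support for a difference between the groups. The 7 were T (log2 fold change 3.72 ± 0.51, adjusted p = 0.00218), Wnt3 (3.30 ± 0.57, adjusted p = 0.00517), Foxa2 (3.20 ± 0.44, adjusted p = 0.00220), Fgf8 (2.92 ± 0.45, adjusted p = 0.00314), Gsc (1.93 ± 0.56, adjusted p = 0.0321), Mixl1 (1.68 ± 0.41, adjusted p = 0.0179) and Eomes (1.597 ± 0.25, adjusted p = 0.00330), all by edgeR with 2 knockout and 3 non-targeted clones. Lhx1 (2.25 ± 0.98, adjusted p = 0.117) and Evx1 (0.04 ± 0.54, adjusted p = 0.966) did not pass. Leaving out any other single clone gave edgeR 0 calls among these genes.

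DESeq2 gave a similar picture of dependence on single clones. It called 5 of the 10 genes higher without knockout replicate 1 (against 14.2% of all genes higher and 14.3% lower), 0 without knockout replicate 2 (1.34% and 0.782%) and 1, Eomes, without knockout replicate 3 (1.06% and 0.829%). Without a non-targeted clone it called 0 (replicate 1, against 121 of 12041 genes higher and 0.565% lower), 3 (replicate 2, T, Eomes and Wnt3, against 4.16% and 1.37%) and 0 (replicate 3, against 0.694% and 0.285%). With the replicate number as a block, edgeR called none, against 0.0136% of all genes higher and 0.00682% lower.

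**Figure D2:**
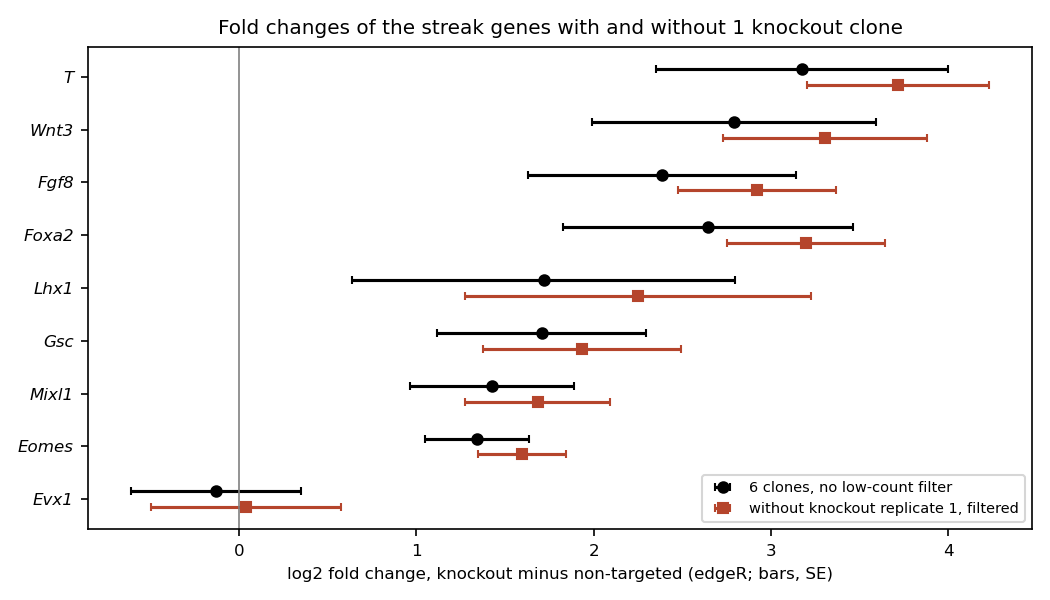
Log2 fold change, knockout minus non-targeted, with its SE (horizontal axis, edgeR) for 9 of the genes, with all 6 clones and no low-count filter (black circles) and without knockout replicate 1 (red squares). T, Wnt3, Foxa2 and Fgf8 lie furthest right in both fits, the SE is smaller without knockout replicate 1 for T (0.51), and Evx1 lies close to 0.

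The same clones held the highest levels in most genes, while the order of the rest varied. Of the 9 genes with reads in more than 1 library, knockout replicates 2 and 3 held the 2 highest levels in 8, with Evx1 as the exception. Knockout replicate 1 lay above every non-targeted clone in 3 (Eomes, Mixl1 and Gsc), within their range in 3 (T, Wnt3 and Lhx1) and below them all in 3 (Fgf8, Foxa2 and Evx1). For Foxa2 it had the same 2 reads as non-targeted replicate 1, and for Fgf8 12 reads against 13, so these orders rest on nearly equal counts. Non-targeted replicate 2 was the highest of the non-targeted clones in 7 of the 9, and exceeded knockout replicate 1 in 6. On the log2 CPM scale, as the difference from the non-targeted mean, T stood at -0.16, 4.41 and 3.32 in knockout replicates 1 to 3, against -0.39, 1.19 and -0.80 in non-targeted replicates 1 to 3. On that scale Wnt3 stood at 0.32, 3.72 and 3.51 in knockout replicates 1 to 3, against -1.25, 1.46 and -0.21 in non-targeted replicates 1 to 3. Variation among clones with the same genotype label was thus part of the pattern in both groups.

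Across the 6 libraries the log2 CPM of T, Eomes, Mixl1, Fgf8, Wnt3 and Lhx1 had a Pearson r of 0.649 to 0.984 in every pair, the highest for T with Fgf8. The pairs of these genes with Evx1 ran from -0.205 to 0.270, and the median over all 21 pairs of the 7 tested genes was 0.813. No such r was computed for pairs of other genes. These correlations describe 6 points that include the group difference and share library and depth within each point. Among 13892 tested genes with a mean of at least 1 CPM, the 5 genes most like T in log2 CPM over the 6 libraries were Ap3b2 (r = 0.997), Adgrv1 (0.994), Ppil3 (0.994), Magel2 (0.992) and Tyms (0.991), and 187 genes had an r above 0.95. The 5 most like Eomes were Ccdc47 (0.996), Nipa1 (0.994), Sept8 (0.993), Zbtb1 (0.990) and Them6 (0.989), of 139 genes above 0.95.

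The nearest genes on the chromosomes had values closer to 0. For the 20 tested genes nearest to T, the median difference from the non-targeted mean was -0.02, -0.01 and -0.03 log2 units in knockout replicates 1 to 3, and around Wnt3 it was -0.21, 0.09 and 0.06. Around Eomes the neighbours were at 0.10, -0.22 and -0.31, opposite in sign to Eomes itself in knockout replicates 2 and 3. Around Evx1 they were at 0.00, 0.19 and 0.06. Over the surroundings of all 10 genes, the median log2 fold change of the neighbours lay between -0.21 (around Mesp1) and 0.06 (around Evx1).

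**Figure D3:**
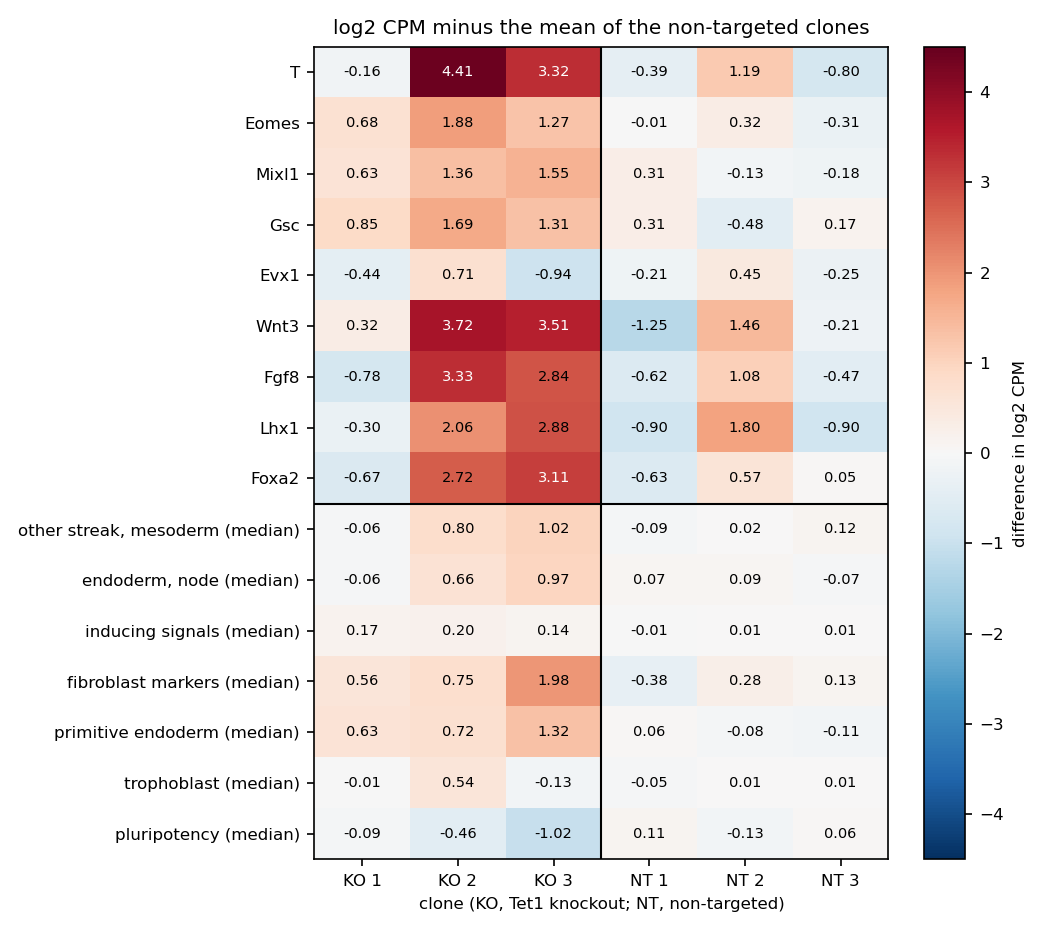
Difference of log2 CPM from the mean of the non-targeted clones (colour and printed value) in each clone (columns, KO left and NT right), for 9 of the genes (upper rows) and as list medians (lower rows). KO 2 and KO 3 are above 2 for T, Wnt3, Fgf8, Foxa2 and Lhx1, while KO 1 stays between -0.78 and 0.85 in the upper rows and NT 2 is at 1.08 or more for T, Fgf8, Wnt3 and Lhx1.

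Other genes of the streak and nascent mesoderm were read from a list of 22, of which 20 had reads and 14 were tested. Of the 14, 11 had a positive log2 fold change, with a median of 0.70, beside the median of 0.0021 over all tested genes. The percentages of all genes given above apply to this and the next lists, for each test, the unadjusted p and groups without overlap. EdgeR called 0, with 5 higher and 0 lower at an unadjusted p of 0.05, and DESeq2 called 2 higher and 0 lower. Sp5, a transcription factor switched on by Wnt signalling, had 1.38, 8.27 and 4.67 CPM in knockout replicates 1 to 3, against 0.807, 1.12 and 1.11 CPM in non-targeted replicates 1 to 3. It rose in DESeq2 (edgeR log2 fold change 2.21 ± 0.61, edgeR adjusted p = 0.122, DESeq2 adjusted p = 0.0101). Pdgfra, a growth factor receptor of mesoderm that is also made in primitive endoderm and fibroblasts, had 4.22, 5.71 and 7.69 CPM in knockout replicates 1 to 3, against 2.82, 2.87 and 2.22 CPM in non-targeted replicates 1 to 3, and also rose in DESeq2 (edgeR log2 fold change 1.15 ± 0.28, DESeq2 adjusted p = 0.0183). Without knockout replicate 1, edgeR called 7 of the 14 higher and 0 lower. One of these, named after its values were seen, is the streak ligand Wnt8a, with 0.690, 17.4 and 7.98 CPM in knockout replicates 1 to 3, against 0.726, 2.31 and 1.11 CPM in non-targeted replicates 1 to 3. Its 3 highest clones were those of T, and knockout replicate 1 and non-targeted replicate 1 were the lowest, with 9 reads each. Nkx1-2 and Foxf1, which lie inside longer genes on the same strand, are listed at 0 in every library.

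Of 17 genes of definitive endoderm and node, 7 were tested, 5 of them with a positive log2 fold change and a median of 0.62. EdgeR called 0, with 2 higher and 1 lower at an unadjusted p of 0.05. DESeq2 called 1, Chrd, which encodes the BMP antagonist chordin of the node. Chrd had 2.76, 4.30 and 6.26 CPM in knockout replicates 1 to 3, against 1.29, 1.56 and 1.39 CPM in non-targeted replicates 1 to 3, with no overlap (edgeR log2 fold change 1.64 ± 0.34, edgeR adjusted p = 0.107, DESeq2 adjusted p = 0.00584). Without knockout replicate 1, edgeR called Chrd, Gata4 and Cxcr4 of the 7 higher and 1 lower, Otx2, a factor of the anterior epiblast and endoderm (-0.49, adjusted p = 0.0407). Sox17, Cer1 and Frzb were also called higher, but passed the filter only in that fit, through the knockout clones where they are high. Cer1, a secreted Nodal and Wnt antagonist of anterior endoderm and chosen after its values were seen, had 0, 0.745 and 0.791 CPM in knockout replicates 1 to 3, against 0, 0.0624 and 0 CPM in non-targeted replicates 1 to 3.

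Of 29 genes of the signals that induce the streak, all were tested, 18 with a positive log2 fold change and a median of 0.25. EdgeR called 0, with 13 higher and 2 lower at an unadjusted p of 0.05, and DESeq2 called 8 higher (Furin, Smad3, Smad1, Wls, Axin2, Lefty2, Bmpr1a and Fgfr1) and 0 lower. Furin, the protease that cleaves the Nodal precursor, had 30.4, 34.7 and 48.8 CPM in knockout replicates 1 to 3, against 16.6, 21.6 and 16.1 CPM in non-targeted replicates 1 to 3, and its groups did not overlap (edgeR log2 fold change 1.07 ± 0.21, edgeR adjusted p = 0.106, DESeq2 adjusted p = 0.000531). Smad3, which carries the Nodal signal to the nucleus, also rose in DESeq2 (edgeR value 1.15 ± 0.26 on the log2 scale, DESeq2 adjusted p = 0.00211), as did Smad1, which carries the BMP signal (0.70 ± 0.14, DESeq2 adjusted p = 0.00299). For Furin, Smad3 and Smad1 all 3 knockout clones, replicate 1 included, stood above all 3 non-targeted clones.

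A pair of Wnt pathway genes of this list was highest in the same clones as T. Wls, the carrier that Wnt ligands need for secretion, had 5.67, 22.1 and 25.5 CPM in knockout replicates 1 to 3, against 3.63, 7.42 and 4.80 CPM in non-targeted replicates 1 to 3 (edgeR log2 fold change 1.74 ± 0.54, DESeq2 adjusted p = 0.0118). Axin2, a feedback inhibitor and common readout of Wnt signalling, had 6.52, 32.4 and 22.6 CPM in knockout replicates 1 to 3, against 5.25, 8.11 and 5.84 CPM in non-targeted replicates 1 to 3 (1.67 ± 0.52, DESeq2 adjusted p = 0.0120). In both genes non-targeted replicate 2 exceeded knockout replicate 1. Lefty1, a Nodal antagonist induced by Nodal and named after its values were seen, had 21.7, 89.9 and 65.1 CPM in knockout replicates 1 to 3, against 9.52, 32.3 and 18.0 CPM in non-targeted replicates 1 to 3. Fgf5, an FGF of the primed epiblast and also named after its values were seen, had 3.07, 34.4 and 44.1 CPM in knockout replicates 1 to 3, against 0.888, 7.17 and 1.67 CPM in non-targeted replicates 1 to 3. Neither of these passed with all clones (edgeR adjusted p = 0.162 and 0.144). Nodal itself had 91.2, 93.2 and 77.0 CPM in knockout replicates 1 to 3, against 103, 89.1 and 102 CPM in non-targeted replicates 1 to 3 (log2 fold change -0.17 ± 0.10, edgeR adjusted p = 0.334). Without knockout replicate 1, edgeR called 11 of the 29 higher and 7 lower. Among the 7, named after their values were seen, were the Wnt co-receptor Lrp6 (-1.19, adjusted p = 0.000203) and Porcn, which lipid-modifies Wnt ligands (-1.10, adjusted p = 0.0342). So were the TGF-beta family ligand Gdf3 (-1.27, adjusted p = 0.000230) and Fgf4 of the early epiblast (-1.07, adjusted p = 0.00187). The others were the BMP ligand Bmp4 (-0.76, adjusted p = 0.0237), Acvr1b (-0.35, adjusted p = 0.03998) and Tdgf1 (-0.24, adjusted p = 0.0492). With all clones Bmp4 was lower without overlap (log2 fold change -0.599 ± 0.21, edgeR adjusted p = 0.153). The groups overlapped for Acvr1b (-0.198) and Tdgf1 (-0.004). Lrp6 (134446476 to 134566965) and Gdf3 (122605403 to 122610087) lie on chromosome 6. Earlier results of these data reported long stretches of lower genes on this chromosome. The part of such a stretch in the levels of Lrp6 and Gdf3 was not tested.

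The DESeq2 calls of these lists also depended on single clones. With each clone left out in turn, DESeq2 called between 0 and 6 of the streak and mesoderm list, between 0 and 3 of the endoderm and node list and between 1 and 17 of the signal list, and the highest count of each came without knockout replicate 1. The share of all genes called was also highest in that fit, with 14.2% higher and 14.3% lower, so the rise was not particular to these lists.

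**Figure D4:**
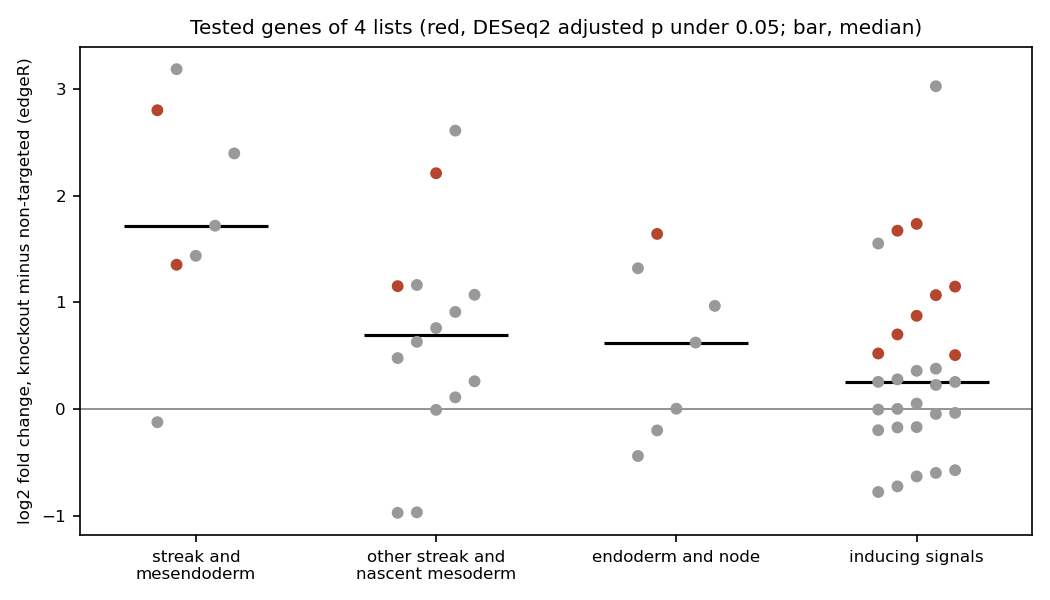
Log2 fold change, knockout minus non-targeted (vertical axis, edgeR with 6 clones), of the tested genes of 4 lists, with 1 point per gene, red where the DESeq2 adjusted p was under 0.05 and grey otherwise, and a bar at the median. The medians are 1.72 for the 7 tested streak and mesendoderm genes, 0.70 for other streak and nascent mesoderm genes, 0.62 for endoderm and node genes and 0.25 for inducing signals.

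Marker lists of other cell types also differed between the clones. As log2 differences from the non-targeted mean, the 7 tested streak genes had medians of -0.16, 2.06 and 2.84 in knockout replicates 1 to 3. Those of non-targeted replicates 1 to 3 were -0.39, 1.08 and -0.31. The fibroblast list (20 genes, all with reads) had a median difference from the non-targeted mean of 0.56, 0.75 and 1.98 log2 units in knockout replicates 1 to 3, against -0.38, 0.28 and 0.13 in non-targeted replicates 1 to 3, so it was above the non-targeted clones in knockout replicate 1 as well. Over all tested genes, 14.0% were higher and 10.8% lower at an unadjusted edgeR p of 0.05, and 14.8% were higher without overlap. DESeq2 called 5.77% of all its tested genes higher and 3.35% lower. Of the 18 tested genes of the fibroblast list, 14 were higher and 0 lower at that unadjusted p. Of these 18, 12 were higher without overlap, and DESeq2 called 7 higher and 0 lower. Its summed level was 1558 to 2042 CPM in knockout clones and 1631 to 1980 CPM in non-targeted clones, a sum to which Fn1 gave the most, with 1419, 872 and 697 CPM in knockout replicates 1 to 3, against 1489, 1114 and 1388 CPM in non-targeted replicates 1 to 3. Its defining markers Col1a1, Col1a2, Col3a1, Postn and Thy1 were highest in knockout replicate 3. Col1a1 had 39.4, 37.1 and 123 CPM in knockout replicates 1 to 3, against 18.8, 30.8 and 26.4 CPM in non-targeted replicates 1 to 3, so that knockout replicate 1, low for T, was above every non-targeted clone for Col1a1. The primitive endoderm list (18 genes, 17 with reads) stood at 0.63, 0.72 and 1.32 log2 units in knockout replicates 1 to 3, against 0.06, -0.08 and -0.11 in non-targeted replicates 1 to 3, with a summed level of 990 to 1206 CPM in knockout clones and 934 to 1024 CPM in non-targeted clones. DESeq2 called 6 of its genes higher (Dab2, Cubn, Col4a1, Col4a2, Pdgfra and Srgn) and 0 lower. Of its defining markers, Sox17 had 0.690 to 1.37 CPM in knockout clones and at most 0.312 CPM in non-targeted clones. Gata4 had 2.53 to 4.10 CPM in knockout clones and 1.182 to 1.93 CPM in non-targeted clones, without overlap. Gata6 had 1.07 to 2.80 CPM in knockout clones and 1.12 to 1.78 CPM in non-targeted clones. Sox7 was lower without overlap, at 1.15 to 2.147 CPM in knockout clones and 2.155 to 2.66 CPM in non-targeted clones.

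The trophoblast list (17 genes, 15 with reads) stood at -0.01, 0.54 and -0.13 log2 units in knockout replicates 1 to 3, against -0.05, 0.01 and 0.015 in non-targeted replicates 1 to 3, with a summed level of 405 to 577 CPM in knockout clones and 390 to 433 CPM in non-targeted clones. Cdx2, which the streak and mesoderm list also holds, was between 0.307 and 1.82 CPM, and Gata3 between 1.15 and 4.80 CPM. Elf5 reached at most 0.417 CPM, and Tpbpa and Prl3d1 were at 0. At an unadjusted edgeR p of 0.05, 14.0% of all tested genes were higher and 10.8% lower. Of the 14 tested genes of the trophoblast list, 3 were higher (Krt8, Krt18 and Fgfr2) and 1 lower (Tfap2c) at that p. DESeq2 called 0. Krt8, named after its values were seen, had 25.1, 74.8 and 158 CPM in knockout replicates 1 to 3. Its level in non-targeted replicates 1 to 3 was 14.8, 42.9 and 25.2 CPM. The pluripotency list (20 genes, 19 with reads) was lower in the clones with high streak genes, at -0.09, -0.46 and -1.02 log2 units in knockout replicates 1 to 3, against 0.11, -0.13 and 0.06 in non-targeted replicates 1 to 3. Its summed level was 3613 to 5671 CPM in knockout clones and 5659 to 6343 CPM in non-targeted clones. Of its 19 tested genes, 17 had a negative log2 fold change. Of these 19, 3 were lower and 0 higher at an unadjusted edgeR p of 0.05, against 10.8% and 14.0% of all tested genes. DESeq2 called 0 with all clones. Without knockout replicate 1, edgeR called 12 lower and 0 higher, where 14.0% of all tested genes fell and 15.1% rose. Pou5f1, which marks pluripotent cells, was at 675 to 692 CPM in knockout clones and 744 to 849 CPM in non-targeted clones, lower without overlap. Nanog stood at 471, 284 and 112 CPM in knockout replicates 1 to 3, against 564, 473 and 462 CPM in non-targeted replicates 1 to 3. Nanog lies near Gdf3 on chromosome 6 (122707489 to 122714633), and the part of a chromosome stretch in its level was not tested. Sox2, which lies inside Sox2ot on the same strand, is listed at 0 throughout. In these bulk libraries a larger share of cells that express streak genes and more streak RNA per cell cannot be told apart, and the part of the fibroblast, primitive endoderm and pluripotency lists in the streak result was not tested. T was highest in knockout replicate 2, while the median of the 7 tested streak genes and that of the fibroblast list were both highest in knockout replicate 3.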

How the data were processed

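Per the labels, RNA of 6 clones was made into stranded poly(A) libraries in 1 sequencing batch. The authors deposited raw read counts per gene. The submitters' processing notes name mm10, DESeq2 1.18.1, HISAT2 2.1.0 and featureCounts 1.5.3. Per the file headers the counts came from featureCounts 1.6.2, reverse-stranded, over whole genes with introns (GENCODE M15). No option for multi-mapping or multi-overlap reads was set, so a gene nested in another on its strand is listed at 0.

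From these counts, edgeR 4.0.16 in R 4.3.3 kept genes with filterByExpr (minimum count 10, minimum total 15), scaled with TMM and ran the quasi-likelihood test with Benjamini-Hochberg adjustment over all tested genes (threshold 0.05). Common dispersion corresponded to a biological coefficient of variation of 18.8%. Log2 CPM used a prior count of 2. DESeq2 1.42.0, limma 3.58.1 (voom), RLE scaling, no filter, the replicate number as a block and clones left out in turn were alternatives. The fits were also run on simulated counts in which all clones of a group shared the same mean for each gene. That setting has no deviating clone, so it does not cover the dependence on single clones. Exon lengths came from GENCODE M21 and upstream sequences from RefSeq.

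The named genes are all 10 genes, Tet1, up to 5 called genes of each further list, the 5 genes most like T and most like Eomes, and defining markers. Where edgeR called none, the DESeq2 calls were used. The genes and lists were chosen with earlier results of these data known.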

Additional observations from a re-analysis of the deposited data

How the results depend on the processing

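The counts of called genes depended on the test and on knockout replicate 1. Over all genes, edgeR called 0 higher and 0 lower (2055 and 1585 at an unadjusted p of 0.05). Without the low-count filter it called 97 higher and 62 lower, among them 1 inducing signal, Furin. Limma voom called 0 higher and 1 lower, and DESeq2 789 higher and 458 lower. Leaving out 1 clone gave edgeR 0 to 2287 higher and 0 to 2117 lower, and DESeq2 2051 higher and 2071 lower without knockout replicate 1, 194 and 113 without knockout replicate 2, 147 and 115 without knockout replicate 3, and, for non-targeted replicates 1 to 3 left out in turn, 121 and 68, 578 and 190, and 90 and 37. Among the 10 streak and mesendoderm genes, the number higher was 2 in DESeq2, 0 to 7 in edgeR and 0 to 5 in DESeq2 with 1 clone left out, and 0 fell in every fit run. The count of 7, without knockout replicate 1, includes Gsc and Foxa2, which passed the filter only then. The other lists had 2 (streak and mesoderm), 1 (endoderm and node) and 8 (signals) calls in DESeq2. With 1 clone left out they had 0 to 7, 0 to 7 and 0 to 18 calls in edgeR, and 0 to 6, 0 to 3 and 1 to 17 in DESeq2. The DESeq2 fits with clones left out or with the block were chosen after seeing the data. The Evx1 log2 fold change ranged over -0.79 to 0.21 with 1 clone left out. That of Lhx1 ranged over 0.81 to 6.71. Evx1 was positive without knockout replicate 1 (0.04 in edgeR, 0.054 in DESeq2), without knockout replicate 3 (0.21 in both) and without non-targeted replicate 2 (0.17 in both). RLE scaling changed no call. The cause of these shifts was not tested.

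Samples with the same replicate number had correlated deviations of 0.458, 0.109 and -0.024, and knockout replicate 3 correlated best with non-targeted replicate 2 (0.459), so the numbers were not taken to pair the clones. With the replicate number as a block, edgeR called 2 higher and 1 lower over all genes and 0 of the 7 streak and mesendoderm genes it tested. DESeq2 with the block called 737 higher and 555 lower, with 3 of the 10 genes (Eomes, Wnt3 and Fgf8), and 2, 1 and 14 of the other lists.

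Fewer than 20 reads in most libraries limit Mixl1, Gsc, Lhx1, Foxa2 and Evx1, and 1 read in total limits Mesp1.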
